A study of Mus musculus with 3 samples.

Results

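A set of 10 genes that mark pericytes of the mouse brain were followed through bulk RNA sequencing of microvascular fragments, short pieces of small vessel that keep the cells attached to the endothelium. The genes were Rgs5, Vtn, Cspg4, Atp13a5, Higd1b, Anpep, Kcnj8, Abcc9, Ndufa4l2 and Cox4i2. They were chosen by symbol, and all 10 of 10 were found among the 56941 genes of the count table. The 3 libraries, named replicates 1, 2 and 3, came from the brains of adult wild-type C57BL/6J mice and form 1 group, so no treated, mutant or whole-brain sample stands beside them. The mice carried no transgene or treatment that the labels name, and sex and exact age are not given. The fragments were not sorted by cell type, so each value is the sum over all cells that came with the vessels. Every difference described here is between genes or between the 3 libraries.

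Pericytes are mural cells that lie within the basement membrane of capillaries, wrap the endothelium with long processes and take part in the control of capillary tone and of the blood-brain barrier. They are recruited by endothelial PDGF-B acting on their receptor PDGFR-beta, and they are known for an ATP-sensitive potassium channel that couples the state of metabolism to membrane voltage. Their markers are shared with other cells: Rgs5, Kcnj8 and Abcc9 are also known from arteriolar smooth muscle, Cspg4 from oligodendrocyte precursor cells and Anpep from fibroblasts and some epithelia.

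The regulatory sequence upstream of 5 of the genes is shown because they stand at the ends of the main pattern described further on: Kcnj8, Abcc9, Atp13a5 and Vtn were lowest in replicate 1, and Rgs5 was highest there. Sequences were matched by symbol in the RefSeq promoter table of build GRCm38.p6, which held 7 of the 10 genes, and the 250 bases before each transcript start are given 5′ to 3′. The counts themselves were made on GRCm39 per the submitters' processing notes, so these positions serve only for the sequences. Kcnj8 lies at chr6:142571615-142571864 on the minus strand and its neighbour Abcc9 at chr6:142702275-142702524 on the minus strand. Atp13a5 lies at chr16:29378733-29378982 on the minus strand, Vtn at chr11:78498870-78499119 on the plus strand and Rgs5 at chr1:169655251-169655500 on the plus strand. Capitals mark matches on either strand to TATAAA, to TGGGAA (the core bound by the Notch factor RBPJ), to ACGTG (the core of hypoxia response elements), to GGGCGG (the GC box), to CCAAT and to CANNTG (the E-box).
Kcnj8: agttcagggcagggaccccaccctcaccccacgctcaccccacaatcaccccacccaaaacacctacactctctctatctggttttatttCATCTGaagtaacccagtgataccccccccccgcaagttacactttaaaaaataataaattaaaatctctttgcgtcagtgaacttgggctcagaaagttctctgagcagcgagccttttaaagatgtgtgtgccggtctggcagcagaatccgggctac
Abcc9: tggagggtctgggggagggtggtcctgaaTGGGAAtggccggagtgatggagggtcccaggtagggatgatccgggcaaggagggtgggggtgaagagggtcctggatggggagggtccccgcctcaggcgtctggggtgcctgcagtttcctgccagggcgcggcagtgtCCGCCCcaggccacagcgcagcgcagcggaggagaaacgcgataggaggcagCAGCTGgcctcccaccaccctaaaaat
Atp13a5: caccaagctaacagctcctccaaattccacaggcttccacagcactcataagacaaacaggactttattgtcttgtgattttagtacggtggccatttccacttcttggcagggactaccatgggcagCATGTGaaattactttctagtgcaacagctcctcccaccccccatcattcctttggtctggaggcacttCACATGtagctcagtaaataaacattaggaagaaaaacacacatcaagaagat
Vtn: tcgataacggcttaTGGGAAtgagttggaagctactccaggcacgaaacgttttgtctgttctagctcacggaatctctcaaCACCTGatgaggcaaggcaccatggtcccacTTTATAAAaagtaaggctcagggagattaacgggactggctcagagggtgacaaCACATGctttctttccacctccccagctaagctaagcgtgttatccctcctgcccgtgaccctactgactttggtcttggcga
Rgs5: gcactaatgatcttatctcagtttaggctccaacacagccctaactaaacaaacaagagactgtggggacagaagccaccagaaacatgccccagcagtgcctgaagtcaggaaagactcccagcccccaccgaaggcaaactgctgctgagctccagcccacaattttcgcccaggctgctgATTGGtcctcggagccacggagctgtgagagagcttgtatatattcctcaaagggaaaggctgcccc

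The windows shared little. An E-box was present upstream of 5 of the 7 matched genes, against 66.22% of all 32851 windows of the same length, and a GC box upstream of 3 (Cspg4, Anpep and Abcc9), against 32.74%. TGGGAA was found upstream of Abcc9 and Vtn, against 21.59% of all windows. TATAAA was found only upstream of Vtn among the 7, as an overlapping match on both strands, against 12.37% of all windows. CCAAT was found only upstream of Rgs5 among the 7, against 33.85%. ACGTG was found in none of the 7 (16.57% of all windows), nor were the CArG box of serum response factor (1.47%) or the MEF2 site (2.92%), which were searched by their usual consensus. The base composition differed as well, with 66.8% G and C upstream of Abcc9, 49.2% upstream of Kcnj8 and 44.8% upstream of Atp13a5, beside a median of 52.4% over all windows. These matches are letters in a window and not binding sites.

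All 10 pericyte genes were detected, meaning at least 1 CPM (the count scaled to a common library size) in every library, which held for 23.2% of all genes in the table. Depth ranged from 128428355 to 150449539 counts per library, and the lowest count of any of the 10 was 2344, for Cox4i2 in replicate 1. Its 95% exact Poisson interval of 2250 to 2441 covers counting error only.

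Rgs5, which encodes a GTPase-activating protein that shortens signalling by G protein-coupled receptors, was by far the most abundant. It had 2256, 1948 and 1928 CPM in replicates 1, 2 and 3, a mean of 2044 ± 184 CPM (SD, n = 3), and stood above 99.7% of the detected genes. Replicate 1 was the highest of the 3. Rgs5 supplied 64.2% of the summed CPM of the 10 genes, so a sum over the list is mostly a reading of Rgs5. That sum was 3236, 3241 and 3078 CPM in replicates 1, 2 and 3, whereas without Rgs5 it was 979, 1293 and 1150.0 CPM.

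Vtn encodes vitronectin, a matrix glycoprotein that brain pericytes secrete and that binds integrins of the alpha-v type. It had 521, 724 and 631 CPM in replicates 1, 2 and 3, a mean of 625 ± 101 CPM (SD, n = 3). Cspg4, the gene of the NG2 proteoglycan of the pericyte surface, had 214, 240.1 and 217 CPM, a mean of 224 ± 14.3 CPM. Both were lowest in replicate 1 and highest in replicate 2, but the range of Vtn was 1.39-fold and that of Cspg4 only 1.12-fold. Anpep encodes aminopeptidase N (CD13), an enzyme of the cell surface that trims peptides. It had 22.7, 28.7 and 23.6 CPM, a mean of 25.04 ± 3.22 CPM, with replicate 2 above the other two.

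Atp13a5 encodes a transport ATPase of the P5 type whose expression in the adult mouse brain is known to be concentrated in pericytes. It had 45.03, 77.5 and 64.1 CPM in replicates 1, 2 and 3, a mean of 62.2 ± 16.3 CPM (SD, n = 3). This 1.72-fold range was the widest among the 10 genes. Higd1b, a member of a family of small mitochondrial membrane proteins, was much steadier, with 42.1, 47.1 and 50.3 CPM and a mean of 46.5 ± 4.13 CPM.

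The ATP-sensitive potassium channel of mural cells is built from a pore, Kir6.1, encoded by Kcnj8, and a sulfonylurea receptor, SUR2, encoded by Abcc9. Kcnj8 had 21.9, 34.9 and 28.3 CPM in replicates 1, 2 and 3, a mean of 28.4 ± 6.49 CPM (SD, n = 3). Abcc9 had 43.0, 60.1 and 54.3 CPM, a mean of 52.4 ± 8.69 CPM. Both were lowest in replicate 1 and highest in replicate 2. The genes are neighbours on chromosome 6 with no protein-coding gene between them in GENCODE M21.

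Ndufa4l2 and Cox4i2 encode alternative forms of mitochondrial proteins that are linked to low oxygen: NDUFA4L2 is a relative of the respiratory chain protein NDUFA4 and a known target of hypoxia-inducible factor, and COX4I2 replaces the common subunit IV of cytochrome c oxidase. Ndufa4l2 had 50.9, 58.2 and 57.8 CPM in replicates 1, 2 and 3, a mean of 55.6 ± 4.08 CPM (SD, n = 3). Cox4i2 had 18.01, 22.5 and 24.0 CPM, a mean of 21.5 ± 3.11 CPM. Both were lowest in replicate 1, with replicates 2 and 3 close together.

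CPM favours long transcripts, so levels of different genes were set side by side per kilobase of exon, using exon lengths from GENCODE M21. On this scale Rgs5 stood first with 449.6 ± 40.5 CPM per kb and Vtn second with 308 ± 49.95 (SD, n = 3 each), both above 99% of the detected genes that had a length (99.5 and 99.2). The short nuclear genes for mitochondrial proteins moved up, to 54.9 ± 4.87 CPM per kb for Higd1b, 50.8 ± 3.73 for Ndufa4l2 and 27.3 ± 3.95 for Cox4i2. Cspg4, with the longest exons of the 10, moved down to 18.7 ± 1.19 CPM per kb. Below it came Atp13a5 at 13.3 ± 3.50, Kcnj8 at 11.1 ± 2.55, Abcc9 at 6.26 ± 1.04 and Anpep at 6.05 ± 0.7799 CPM per kb. Among the 9 pairs of neighbours in this order, 8 kept the same order in 3 of 3 libraries by a log2 difference larger than its SD. Abcc9 and Anpep did not, with a log2 difference of 0.04 ± 0.14 and Abcc9 higher in 2 of 3 libraries. With coding length in place of exon length, Ndufa4l2 (213 CPM per kb) stood above Higd1b (158) and Kcnj8 (22.3) above Atp13a5 (17.1). Rgs5 (3764) then stood much further above Vtn (436). In CPM without length scaling the order was another, and 4 of its own 9 pairs of neighbours were apart. Each order was taken from the means of the same 3 libraries in which its pairs were compared.

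**Figure D1:**
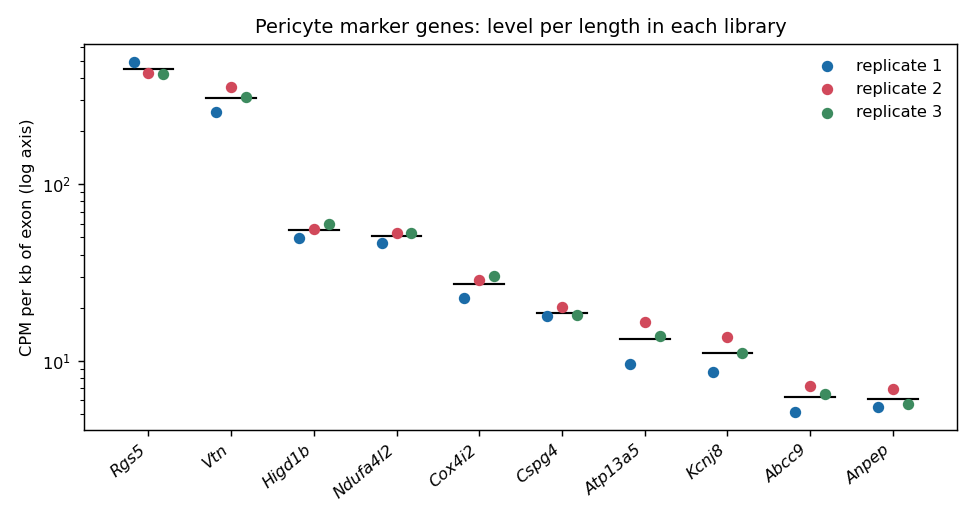
Level of each of the 10 pericyte marker genes in CPM per kilobase of exon (vertical log axis), with 1 point for each of the 3 libraries and a line at their mean. Rgs5 and Vtn stand at 449.6 and 308 CPM per kb, well above the other 8 genes, and replicate 1 (blue) is the lowest point for every gene but Rgs5.

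The channel genes of the Kir6 and sulfonylurea receptor families were almost all of the mural kind. Kcnj11, the pore gene of pancreatic and neuronal channels, had 0.530, 0.393 and 0.303 CPM in replicates 1, 2 and 3, and Abcc8, its usual partner, had 0.154, 0.222 and 0.124 CPM. Both stayed under the detection limit in all 3 libraries. Per kilobase, Kcnj8 was above Abcc9 by 0.73, 0.92 and 0.77 on the log2 scale, a mean of 0.81 ± 0.10 (SD, n = 3) or 1.75-fold. The sign follows the scale, since in CPM without length scaling the difference was -0.89. Of the 15 inward rectifier genes, 8 were detected, and Kcnj10, a channel of astrocytes, was the highest at 176 ± 45.6 CPM. Kcnj8 came second in mean CPM, but in replicate 1 its 21.9 CPM lay below Kcnj2 (25.8 CPM) and Kcnj13 (24.1 CPM), and per kilobase its mean of 11.1 lay below the 15.4 of Kcnj13. The lowest detected was Kcnj15 at 1.86 ± 0.471 CPM. None of the 12 inward rectifier genes tested was called in the edgeR test of spread between libraries described further on. At an unadjusted p under 0.05 there were 4, Kcnj8 itself among them, beside 5.17% of all genes tested.

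Each alternative mitochondrial form was below its common relative. Ndufa4, the common form, had 139, 138 and 133 CPM in replicates 1, 2 and 3. Per kilobase, Ndufa4l2 differed from Ndufa4 by -1.11, -0.91 and -0.87 on the log2 scale, a mean of -0.96 ± 0.13 (SD, n = 3), and it made up 33.9 ± 2.05% of the summed level per kilobase of both genes. Cox4i1, the common subunit IV, had 272, 304 and 294 CPM. Cox4i2 differed from Cox4i1 by -2.94, -2.78 and -2.64 per kilobase, a mean of -2.78 ± 0.15, and made up 12.7 ± 1.15% of their sum. With coding length in place of exon length the mean difference was -3.79 and the share 6.77 ± 0.656%, and without length scaling they were -3.76 and 6.88 ± 0.666%. Per kilobase of exon both shares were lowest in replicate 1, at 31.6% and 11.5%. They are shares over all cells of the fragments, not shares within pericytes. Among the 19 nuclear genes of cytochrome c oxidase and the NDUFA4 family, 17 were detected, from Cox4i1 at 290.2 ± 16.5 CPM down to Cox8b at 2.70 ± 0.628 CPM. The muscle form Cox7a1 had 2.76 ± 0.0283 CPM, and Cox6a2 and Cox8c were under the limit. None of the 18 that were tested was called in the edgeR spread test. At an unadjusted p under 0.05 there were 0, beside 5.17% of all genes tested.

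Within their own families several pericyte genes were prominent. Rgs5 was higher than its neighbour Rgs4, also known from mural cells, by 2.07, 2.07 and 1.86 on the log2 scale per kilobase in replicates 1, 2 and 3, a mean of 2.00 ± 0.12 (SD, n = 3), which was 2.73 with coding length. Rgs4 had 348 ± 28.3 CPM, Rgs3 198 ± 28.1 CPM, and Rgs1 was the lowest of the 6 detected genes of this RGS subfamily at 1.55 ± 0.231 CPM. Atp13a5 was higher than its neighbour Atp13a4 by 3.57, 4.29 and 4.37, a mean of 4.07 ± 0.44, with Atp13a4 at 4.26 ± 0.623 CPM, and the mean difference was 3.06 with a pseudocount of 1 in place of 0.1. Atp13a3, a transporter of polyamines, had the highest mean CPM of its family, at 80.7 ± 19.5 CPM, but in replicate 2 Atp13a5 was above it, and per kilobase Atp13a3 (8.12) lay below Atp13a1 (14.4), Atp13a5 (13.3) and Atp13a2 (9.08). Anpep was lower than Enpep, the aminopeptidase A gene that also marks mural cells, by a log2 difference of -0.82 ± 0.19 per kilobase, and it had the lowest mean CPM of the 9 detected genes of its enzyme family, which Rnpepl1 led at 187 ± 29.1 CPM.

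Higd1b and its relative Higd1a had nearly equal CPM, with Higd1a at 41.6, 42.9 and 43.8 CPM in replicates 1, 2 and 3. Per kilobase of exon Higd1b was higher by 1.85, 1.97 and 2.04 on the log2 scale, a mean of 1.95 ± 0.09 (SD, n = 3). This difference rests on the length used: Higd1a has 3040 exonic bases against 847 for Higd1b, but their coding lengths are 297 and 294 bases, and per kilobase of coding sequence the difference was 0.13. In addition, 22.5% of the exonic length of Higd1a lies under exons of Gm47112 on the other strand, and the strand setting of the counting is not given in the sources used here. Such overlap covered 9.94% of Cox4i1, 2.92% of Ndufa4l2 and 1.89% of Abcc9, and none of the exonic length of the other 8 pericyte genes. The highest gene of the family in CPM was Higd2a at 79.0 ± 6.69 CPM, and Higd1c had no counts.

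**Figure D2:**
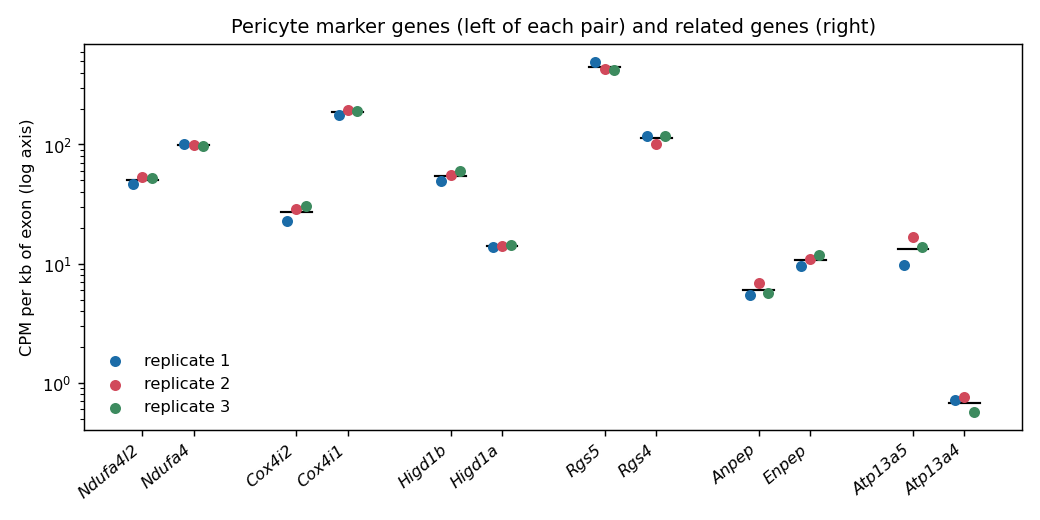
Levels in CPM per kilobase of exon (vertical log axis) of 6 pericyte marker genes, each left of a related gene, with 1 point per library and a line at the mean of 3. Ndufa4l2, Cox4i2 and Anpep lie below their relatives, while Higd1b, Rgs5 and Atp13a5 lie above theirs, in all 3 libraries.

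Genes of further lists, chosen around the pericyte genes, were detected in most cases, beside 23.2% of all genes in the table. Of 9 genes for vitronectin receptors and other vitronectin-binding proteins, 8 were detected, and the integrin Itgb1 was the highest at 969 ± 95.2 CPM. Itgav, the gene of the alpha-v chain, had 65.1 ± 12.4 CPM. All 12 genes of pericyte recruitment were detected, from S1pr1, an endothelial lipid receptor, at 1071 ± 130.02 CPM to Angpt1, a pericyte ligand of the endothelial receptor TIE2, at 12.9 ± 3.02 CPM. Of the 15 targets of hypoxia-inducible factor, 14 were detected, from Slc2a1 at 5776 ± 1409 CPM to Egln3 at 1.85 ± 0.268 CPM, and of the 4 factor genes Epas1 was the highest at 3157 ± 182 CPM and Hif3a the lowest at 8.69 ± 4.19 CPM. Of 6 genes for core proteins of chondroitin sulfate proteoglycans, the pericyte gene Cspg4 itself among them, 5 were detected. They ran from Cspg4 as the highest in CPM down to Vcan at 2.09 ± 0.201 CPM. Acan was under the limit at 0.411 ± 0.133 CPM.

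Between the libraries, 9 of the 10 pericyte genes were lowest in replicate 1, which held for 35.6% of the 18087 genes tested for spread. Of the 10, 7 were highest in replicate 2 (30.0% of those genes), 2 in replicate 3 (34.5%) and 1, Rgs5, in replicate 1 (35.5%). The median deviation of the 10 genes from their own means, on the log2(CPM + 1) scale, was -0.18, 0.15 and 0.04 in replicates 1, 2 and 3, while the medians over all detected genes were -0.01, -0.003 and 0.01. The deviations were widest for Atp13a5, at -0.42, 0.35 and 0.08, and for Kcnj8, at -0.33, 0.31 and 0.02. Rgs5 went the other way, at 0.15, -0.07 and -0.08. In bulk RNA, fewer pericytes and less of these RNAs per pericyte cannot be told apart. The 3 libraries were taken as separate mice on the series' design text.

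**Figure D3:**
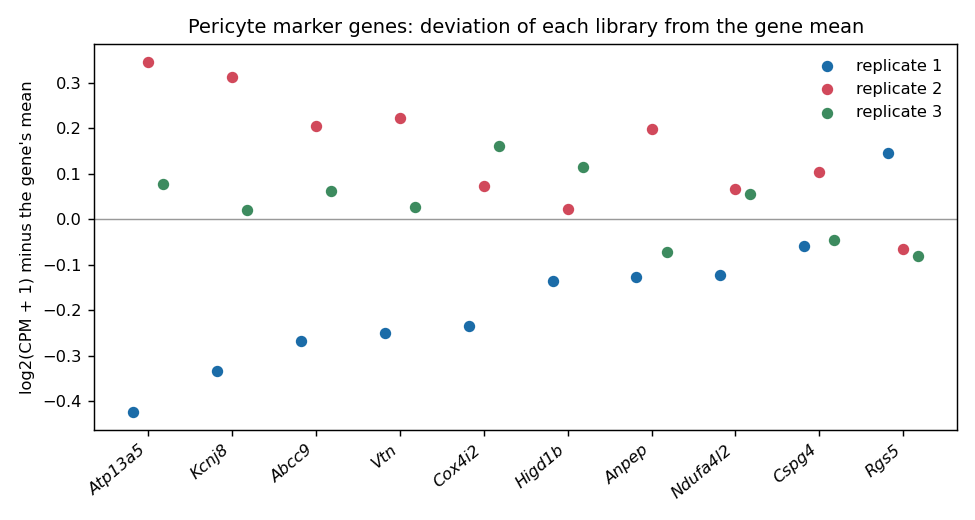
Deviation of each library from the gene's own mean, in log2(CPM + 1), for the 10 pericyte marker genes, ordered by their value in replicate 1, with 1 point per library. Replicate 1 lies below 0 for 9 genes, from -0.42 for Atp13a5 to -0.06 for Cspg4, and above 0 for Rgs5 at 0.15.

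No pericyte gene was called as varying more than the trend of all genes. In edgeR's quasi-likelihood model with Benjamini-Hochberg adjustment, 0 of the 10 were called at an adjusted p under 0.05, beside 0.0829% of the 18087 genes tested, and the lowest adjusted p among the 10 was 0.912, for Atp13a5, followed by 0.955 for Kcnj8. At an unadjusted p under 0.05 there were 2 of 10, Atp13a5 and Kcnj8, beside 5.17% of all genes tested. That count was 0 without replicate 1, 1 without replicate 2 and 3 without replicate 3, and it was 1 without a filter, with a filter of 1 CPM in every library or with a robust prior. By the F statistic of this test, without a threshold on p, 6 of the 10 lay above the trend in dispersion. They ran from Atp13a5 (F = 9.06) down to Anpep (F = 1.62). The share of all genes tested that lay above the trend was not computed, so this count cannot be read as an excess. Wider ranges than these also went uncalled in the edgeR test. Itgb8 had 33.2, 18.1 and 10.9 CPM in replicates 1, 2 and 3 and an adjusted p of 0.351. The lack of a call therefore does not show that the 10 genes were steady. DESeq2 marked 0 of the 10 as dispersion outliers. The coefficient of variation had a median of 13.7% over the 10 genes and 9.59% over all detected genes, and 6 of the 10 lay above 9.59%. It reached 26.2% for Atp13a5, above 93.2% of the detected genes, and 22.9% for Kcnj8, and it was lowest for Cspg4 at 6.37% and Ndufa4l2 at 7.33%. With 3 libraries an exact sign-flip test of any 1 gene or ratio cannot go below p = 0.25, so SDs are given in its place.

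**Figure D4:**
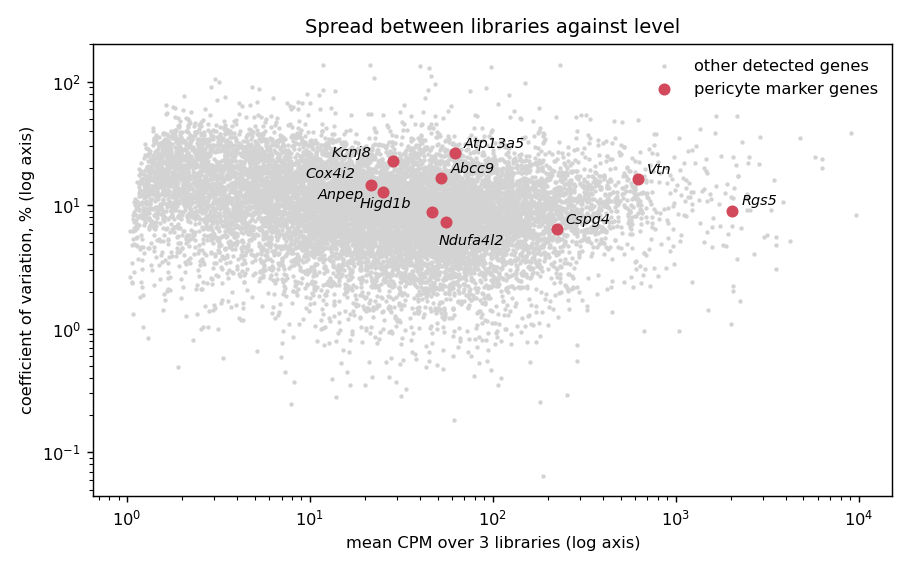
Coefficient of variation over the 3 libraries in percent against mean CPM, both on log axes, for the 10 pericyte marker genes (red) and all other genes detected in every library (grey). The pericyte genes lie inside the cloud, from 6.37% for Cspg4 to 26.2% for Atp13a5.

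Ratios between pericyte genes were steadier than the single genes in some pairs. Over the 45 pairs, the log2 ratio of Vtn to Abcc9 had the lowest SD, 0.03, with values of 3.60, 3.59 and 3.54 in replicates 1, 2 and 3. Higd1b to Ndufa4l2 followed with an SD of 0.05, and Atp13a5 to Kcnj8 with 0.07. Kcnj8 to Abcc9, the subunits of the channel, had an SD of 0.10 and ranked 8 of 45. The 5 pairs with the widest SD, from 0.34 to 0.52, all contained Rgs5, with Cox4i2, Vtn, Abcc9, Kcnj8 and Atp13a5. Rgs5 to Atp13a5 was widest, at 5.65, 4.65 and 4.91. With 3 points per ratio, and pairs that share genes, these orders are a description and no test was made.

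Other marker lists were used to see what else the fragments held. All 21 further pericyte genes were detected, from Notch3 at 487 ± 22.4 CPM to Pla1a at 6.08 ± 2.14 CPM. Of the 21, 11 were lowest in replicate 1, beside 35.6% of all genes tested for spread. Their median deviation was -0.08, 0.03 and 0.01 in replicates 1, 2 and 3, the same order as for the 10 genes but smaller. Tbx18, Zic1, Ifitm1, Ebf1, Rgs4 and Notch3 went the other way and were highest in replicate 1. Tbx18 was the widest of these, with deviations of 0.35, -0.21 and -0.13. None of these 21 passed the edgeR spread test, and 2 had an unadjusted p under 0.05, beside 5.17% of all genes tested. Pdgfrb, the receptor through which pericytes are recruited, had 328, 390.4 and 361 CPM. Among 49 detected genes of the further pericyte, smooth muscle and endothelial lists, the 5 whose 3 deviations lay nearest to the median of the 10 included Gper1, Pdgfrb and Foxs1 of the pericyte list and Cldn5 of the endothelial list, at Euclidean distances of 0.06 to 0.12 log2 units. Rgs5 itself lay at 0.41.

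Smooth muscle genes showed another order. All 12 were detected, from Acta2 at 2461 ± 303 CPM to Actg2 at 9.86 ± 1.46 CPM, only 1 was lowest in replicate 1, and their median deviation was 0.07, -0.15 and 0.10. Their summed level was 6469, 5735 and 6549 CPM in replicates 1, 2 and 3. The median of the 10 pericyte genes lay below that of the smooth muscle list by a difference in log2(CPM + 1) of -1.65, -1.31 and -1.47, a mean of -1.48 ± 0.17 (SD, n = 3). In log2 CPM per kilobase this difference was -0.85, -0.48 and -0.79, a mean of -0.70 ± 0.20. The endothelial list of 16 genes, all detected, from Flt1 at 3852 ± 412 CPM to Erg at 261 ± 17.9 CPM, was low in replicate 1 like the pericyte genes: 13 of 16 were lowest there, with median deviations of -0.16, 0.02 and 0.11 and summed levels of 22189, 25262 and 27321 CPM.

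Genes of oligodendrocyte precursors and fibroblasts, which share single markers with pericytes, were at different levels. Of 10 genes of oligodendrocyte precursors, which also express Cspg4, 6 were detected, with summed levels of 94.5, 95.04 and 58.7 CPM, most of it from Ptprz1 (62.9 ± 18.1 CPM), a gene that astrocytes express too. Pdgfra had 6.08 ± 0.676 CPM, Gpr17 1.47 ± 0.164 CPM, and Olig2 and Sox10 were under the limit, though no gene of the list was at 0. In CPM without length scaling, Cspg4 alone, at 224 ± 14.3 CPM, exceeded the summed list in each library. Per kilobase of exon Cspg4 had 18.7 ± 1.19 CPM, beside 4.41 ± 1.27 for Ptprz1. How much of the Cspg4 level came from these precursors was not tested. Of 12 fibroblast genes, among them Pdgfra again, 11 were detected, from Mgp at 626 ± 77.5 CPM to Lum at 1.59 ± 0.610 CPM, with summed levels of 828, 807 and 932 CPM, and none at 0. Mgp alone supplied 568, 597 and 714 CPM of these sums. The median deviation of the 11 detected genes was instead highest in replicate 1, at 0.11, -0.07 and -0.07 in replicates 1, 2 and 3.

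Red blood cell transcripts set replicate 1 apart. Of 9 erythroid genes, 5 were detected, all 5 were called by the edgeR spread test (adjusted p of 0.0135 to 0.0219), and the list summed to 1095, 135 and 63.4 CPM in replicates 1, 2 and 3. None of the erythroid genes was called without replicate 1 or with a robust prior. The 13 mitochondrially encoded messengers summed to 30930.2, 16139 and 16196 CPM. Of these sums, mt-Co1 alone supplied 13092, 6927 and 7214 CPM, while mt-Nd4l and mt-Atp8 were under the detection limit. Astrocyte genes (10 of 10 detected) summed to 1808, 2015 and 1133 CPM, with 1210, 1303 and 627 CPM from Slc1a2 alone. Microglial genes (12 of 12) summed to 8264, 6382 and 7887 CPM. Choroid plexus and ependymal genes (10 of 10) summed to 6926, 8235 and 5100.5 CPM. Of these last sums, Ttr alone supplied 6329, 7759 and 4759 CPM. The median deviation of that list was instead highest in replicate 1, at 0.14, 0.08 and -0.34 in replicates 1, 2 and 3. Neuronal genes (10 of 12 detected) summed to 151, 126 and 138 CPM and oligodendrocyte genes (7 of 12) to 931, 658 and 1057 CPM. Of the neuronal sums, Stmn2 alone supplied 80.5, 70.0 and 87.6 CPM. Of the oligodendrocyte sums, Mal alone supplied 753, 495 and 896 CPM. The part of these transcripts in the lower pericyte values of replicate 1 was not tested.

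**Figure D5:**
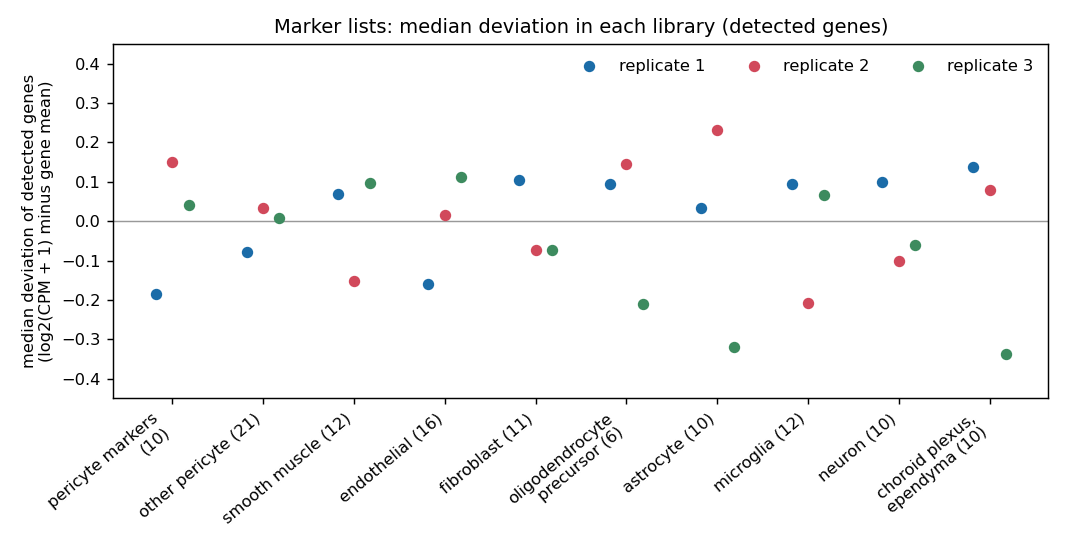
Median deviation of each marker list in each library, in log2(CPM + 1) from the gene mean, over the detected genes of the list (their number in brackets), with 1 point per library. Replicate 1 (blue) is lowest for the 10 pericyte markers at -0.18, for the further pericyte genes at -0.08 and for the endothelial genes at -0.16, and it is above 0 for the other lists shown.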

How the data were processed

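Per the labels' protocols, brain tissue of adult C57BL/6J mice was broken up mechanically and with enzymes, and poly(A)-selected stranded libraries (input 400 ng RNA) were read from both ends at 150 bp. The authors deposited raw counts per gene symbol, 1 column per library. Per the submitters' processing notes, GRCm39 was the build, and featureCounts and Subread (version 1.4.6-p5) are named. The sources used here give no aligner, annotation release, strand setting or treatment of multi-mapping reads.

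From these counts, CPM with TMM factors (1.01, 1.02 and 0.965) came from edgeR 4.0.16 in R 4.3.3. Spread between libraries was tested with an intercept-only quasi-likelihood fit on 18087 genes kept by filterByExpr, which compares each gene's dispersion with the fitted trend (F test, upper tail) and adjusts p-values by Benjamini-Hochberg. The script was tested on simulated data. DESeq2 1.42.0 was an alternative. The erythroid calls under each setting, the smooth muscle difference per kb and the shares under other lengths were added after seeing the data. Python 3.11.15, numpy 2.4.6 and pandas 2.3.3 made the other values. Pseudocounts were 1 for deviations and 0.1 for log2 ratios per kb. Exon and coding lengths came from GENCODE M21 (GRCm38), matched by symbol for 12813 of 13211 detected genes.

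No library was a copy of another (mean chi-square per gene of 179 to 252 on 1 degree of freedom over detected genes). The members and lists were chosen with earlier results of these data known, and the promoter motifs after the sequences had been seen. Named were the 10 genes, their direct relatives, the highest and lowest detected gene of each list and the 5 genes nearest in pattern; a few others were named after their values were seen. Some genes that the rule names are not reported here. P-values measure the spread between these 3 libraries.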

Additional observations from a re-analysis of the deposited data

How the results depend on the processing

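Leaving out each replicate in turn left 0 of the 10 genes called. Because wider ranges also went uncalled, this does not show that the genes were steady. The directions of the 7 ratios and the detection of the 10 genes could not change in this way. Each ratio had the same sign in all 3 libraries, and detection was required in every library. The count highest in replicate 2 was 8 without replicate 1 and 9 without replicate 3, beside 7 as reported. A gene highest in replicate 2 stays so among fewer libraries, so this count could not fall. The share over all genes was not computed for these 2 settings. DESeq2 size factors and library totals also kept 10 detected, 0 called and 7 highest in replicate 2. The edgeR spread test called 0 of the 10 in every setting, while calls over all genes ran from 0 with a robust prior to 82 without replicate 2, with 7 without replicate 1, 35 without replicate 3, 12 with library totals, 32 without a filter and 5 at 1 CPM in every library, beside 15 as reported; DESeq2 marked 137 genes.

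Length scaling moved the ratios. With coding length, the log2 difference was 0.96 for Kcnj8 minus Abcc9, -1.38 for Ndufa4l2 minus Ndufa4, -3.79 for Cox4i2 minus Cox4i1, 0.13 for Higd1b minus Higd1a, 2.73 for Rgs5 minus Rgs4 and -1.04 for Anpep minus Enpep. Without length scaling it was -0.89 for Kcnj8 minus Abcc9, a reversal, -1.30 for Ndufa4l2 minus Ndufa4, -3.76 for Cox4i2 minus Cox4i1, 0.12 for Higd1b minus Higd1a and 2.55 for Rgs5 minus Rgs4, and 4 of the 9 neighbours in the CPM order were apart, beside 8 of 9 in the order per kilobase. With a pseudocount of 1, Atp13a5 minus Atp13a4 was 3.06. These changes follow from the lengths and the pseudocount themselves. No paired analysis was possible because all 3 libraries belong to 1 group.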
